A study of Mus musculus with 12 samples.

Results

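The genes described here are the regulators and terminal components of the complement system that the NanoString mouse Immunology code set carries under 9 fixed names, Cfd, Cfi, Cfp, Serping1, Clu, Cd55, Hc, C6 and C7, out of 547 endogenous genes. They were chosen by name, across all 12 samples of the study. NanoString counts RNA molecules directly with color-coded probes, and each library also carries 6 positive and 8 negative control probes. A gene is called above the detection limit of a sample where its count exceeds the mean of that sample's negative controls plus 2 SD.

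The study asked how T cells that recognize a model autoantigen induce lupus-like skin lesions, and how their expression changes in the skin. The flare samples (n = 3) and the first samples (n = 3) were T cell preparations from dorsal skin of mice injected with Th2 cells, taken when lesions recurred (around week 12) and at first disease (around week 4). Recipients were sublethally irradiated Ii-TGO mice on the BALB/c background, TLR9KO or WT, in which an invariant chain promoter drives the doxycycline-responsive transactivator, so that MHC class II cells make an ovalbumin fusion protein on Dox chow; the genotype of the recipient behind each library is not given in the labels. First mice stayed on Dox chow until lesions appeared, and flare mice had a second course of the chow after healing. The flare samples carried skin disease scores of 1 and 0.5 (mice 1 and 2, experiment 1) and 2 (mouse 12, experiment 2), and the first samples scores of 1, 3 and 3 (mice 1, 3 and 6, experiment 1). The cultures were DO11.10 T cells, whose transgenic receptor recognizes an ovalbumin peptide, harvested on day 10 after activation and restimulation with peptide-pulsed irradiated splenocytes and IL-2. Th2 cultures (n = 3, experiment 1 and a male and a female culture of experiment 2) received IL-4 with antibodies to IFNγ and IL-12p40, Th1 cultures (n = 2, 1 of each experiment) received IFNγ with antibody to IL-4, and the Th0 culture (n = 1, experiment 2) was not skewed. Mouse 1 is named in both skin groups; whether it is the same animal is not stated.

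Complement is a cascade of plasma and membrane proteins in which a C3 convertase, assembled by the classical, lectin or alternative pathway, deposits C3b and leads to cleavage of C5 and assembly of the membrane attack complex. Liver makes most plasma complement, and macrophages, fibroblasts, endothelial cells and keratinocytes make many components locally. Properdin (Cfp) stabilizes the alternative pathway convertase and factor D (Cfd), known from adipose tissue as adipsin, is the protease that cleaves factor B within it. Cfi cleaves C3b and C4b, Serping1 encodes C1 inhibitor, Cd55 dissociates convertases on the cell's own membrane and clusterin (Clu) binds nascent terminal complexes in the fluid phase. Hc (hemolytic complement) is the mouse gene for C5, and C6 and C7 join C5b at the start of the membrane attack complex.

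The libraries from skin and culture differed in depth and in cell type markers. Endogenous counts summed to between 25925 and 131229 in the 6 skin libraries and between 417917 and 481131 in the 6 cultures, and the geometric mean of 7 housekeeping genes was 349 to 2287 counts in skin and 7028 to 15129 in culture, while that of the positive controls was higher in skin (1525 to 3627) than in culture (804 to 1625). Counts brought to a common housekeeping level, called scaled counts below, therefore multiply a skin count by a larger factor, and the detection limit corresponds to 35.7 to 242 scaled counts in skin and 3.87 to 8.41 in culture. The skin libraries also went against their label as T cell samples. Summed counts of 8 T cell markers on the panel were 95 to 160 in flare and 130 to 240 in first samples. In Th2 samples they were 28997 to 29915. In scaled counts the sums were 514 to 769 in flare, 213 to 944 in first and 9219 to 11471 in Th2 samples. Cd3d was above the limit in 1 of 6 skin libraries, and Lck in 0 of 6. Cd2 was above it in 3 of 3 flare and 2 of 3 first libraries. Cd247 was above it in 2 of 3 and Cd4 in 1 of 3 flare libraries, and neither in first libraries. Cd3e, Cd5 and Cd28 were above it in no skin library. Summed counts of 11 monocyte and macrophage markers were 660 to 2644 in flare, 935 to 4204 in first and 220 to 263 in Th2 samples, and those of 12 stromal, endothelial and epithelial markers 389 to 775 in flare, 404 to 1913 in first and 751 to 957 in Th2 samples. In such bulk RNA, fewer cells of a type and less RNA per cell cannot be told apart. Enrichment was on CD3 columns by the methods for this assay and with the KJ1-26 antibody to the transgenic receptor elsewhere in the same methods.

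Detection divided the 9 genes. Cfp and C6 were above the limit in 12 of 12 samples and Cd55 in 11 of 12. Serping1 was above it in 8 of 12 (6 skin libraries and 2 Th2 cultures), Clu in 6 of 12 (all skin), Cfd in 3 of 12 (all skin) and Hc in 3 of 12 (the Th2 cultures). Cfi and C7 were above it in 0 of 12, with counts of 1 to 11 and 2 to 13. With a stricter limit of the mean plus 3 SD, Serping1 was above it in 6, Cd55 in 9 and C6 in 11 of 12 samples. With the highest negative control as the limit, Hc was above it in 4 cultures and C7 in 1 culture. The additional culture for Hc was Th0, with 17 counts beside a highest control of 16 and a limit of 17.9 by the mean plus 2 SD.

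**Figure D1:**
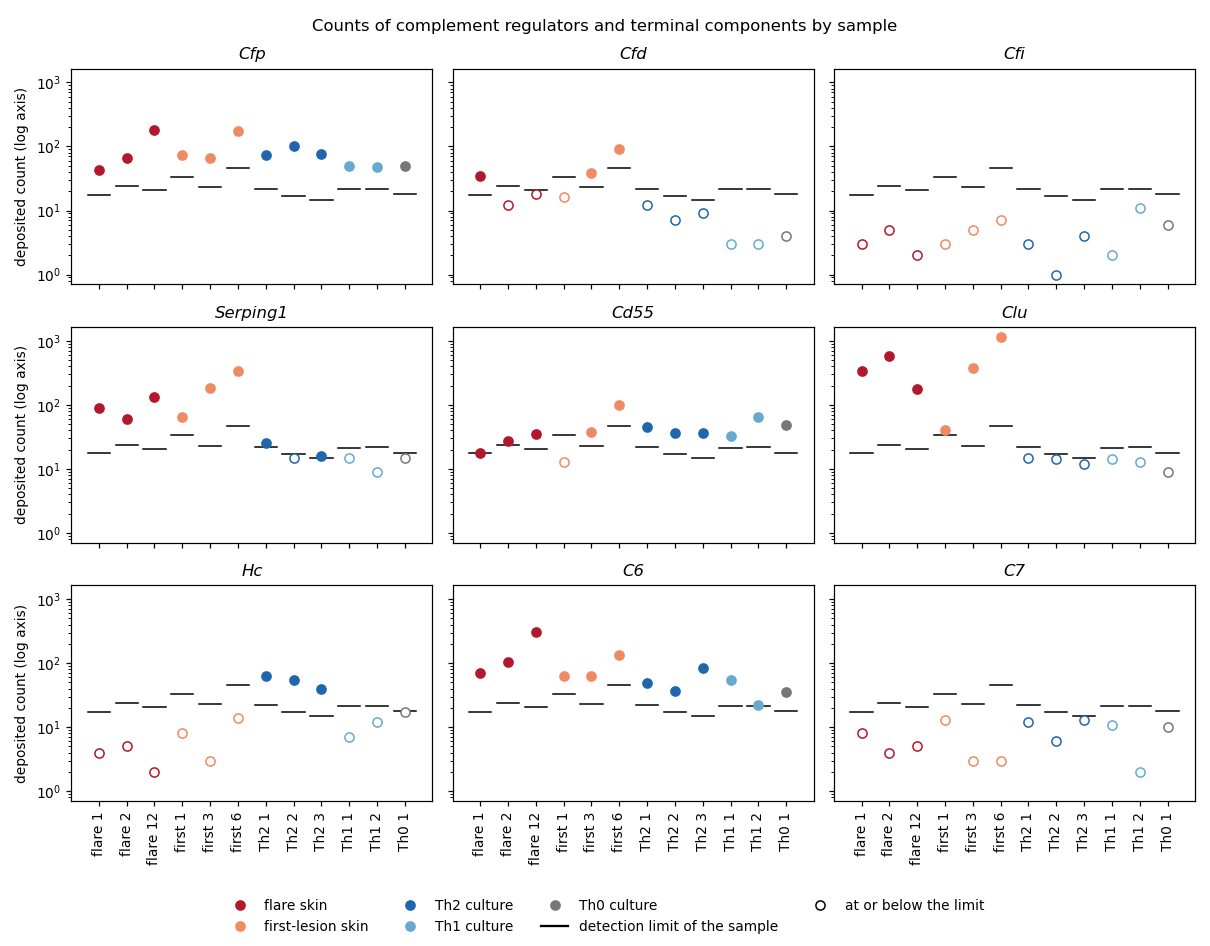
Deposited counts (log axis, not scaled) of the 9 genes in each of the 12 samples, with the sample's own detection limit as a black bar and open circles for counts at or below it. Clu and Serping1 lay above the limit in every skin library, Hc was above it in the 3 Th2 cultures only, and Cfi and C7 stayed at or below it throughout.

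Hc and Cfp carried the difference between the polarized cultures, Hc as the member above the limit in Th2 cultures alone and Cfp as a member measurable in every sample, so their promoter windows are shown first. Each runs 5′ to 3′ from 250 bases before to 50 bases after a transcript start in RefSeq, assembly GRCm38.p6, which is of a C57BL/6J mouse. Capitals mark a TATAAA match on either strand.
Hc, chr2:35061363-35061662, minus strand: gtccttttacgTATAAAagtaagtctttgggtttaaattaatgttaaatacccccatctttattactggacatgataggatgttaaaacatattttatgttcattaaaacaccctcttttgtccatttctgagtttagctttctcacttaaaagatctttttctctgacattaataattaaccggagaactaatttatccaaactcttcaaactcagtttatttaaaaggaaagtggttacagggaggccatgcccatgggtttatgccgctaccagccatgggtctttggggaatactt
Cfp, chrX:20931506-20931805, minus strand: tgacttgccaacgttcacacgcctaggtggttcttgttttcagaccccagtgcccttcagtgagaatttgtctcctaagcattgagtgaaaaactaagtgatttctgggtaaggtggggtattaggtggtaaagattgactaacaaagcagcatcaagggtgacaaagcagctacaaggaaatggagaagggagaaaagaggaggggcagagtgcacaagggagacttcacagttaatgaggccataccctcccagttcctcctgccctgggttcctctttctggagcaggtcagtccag
The Cfp window covers the 5′ end of the gene (chrX:20925454-20931555), whereas the Hc window lies inside the longest annotated span of Hc (chr2:34983329-35068506). Both strands were searched for TTCNNNNGAA, the STAT6-type spacing, TTCNNNGAA, the GAS element of other STAT factors, GAAANNGAAA, an interferon response element, AGATAA, which the Gata3 family binds, and finally the core promoter element TATAAA. Neither window held the first 4 of these. TATAAA was found in Hc at base 12 of the window, near the end that lies 250 bases before the transcript start. It is a match of letters far from that start and is not read as a core promoter element. Across 32851 windows of the same length the shares holding each motif were 6.95%, 8.30%, 3.44%, 11.2% and 13.6%, in the order searched.

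Th2 cultures were compared with Th1 cultures to describe complement expression before injection. Markers of other cells were also counted in the cultures. Summed counts of 8 B cell markers were 1087 to 2799 in Th2 and 478 to 1779 in Th1 cultures. Those of 7 neutrophil markers were 148 to 515 in Th2 and 123 to 183 in Th1 cultures. For 11 monocyte and macrophage markers they were 220 to 263 in Th2 and 176 to 297 in Th1 cultures. Their part in the differences below was not tested. Of the 9 genes, 5 passed the filter on low counts and 3 were higher in Th2 cultures, Hc, Cfp and Serping1; 0 were lower. The background was high: edgeR's quasi-likelihood test called 27.8% of the 400 genes tested higher and 4.5% lower at an adjusted p under 0.05. The median log2 fold change was 1.46 over these 5 genes and 0.58 over all 400, and since a gene had to pass the limit in at least 2 libraries to be tested, neither figure speaks for the genes left out.

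Hc counted 64, 55 and 40 in the Th2 cultures, against 7 and 12 in the Th1 cultures and 17 in the Th0 culture. All 3 Th2 cultures stood above the limit and both Th1 cultures below it, with no overlap. Measured against the limit, C5 mRNA was at least 4.41-fold higher in Th2 cultures, at 19.0 ± 4.99 scaled counts (SD, n = 3), against 1.85 ± 0.41 in Th1 cultures (SD, n = 2). The fitted log2 fold change was 3.33, with a standard error (SE) of 0.49 and an adjusted p = 0.00307. The difference was present within each experiment, with log2 ratios of 3.98 and 2.92 in experiments 1 and 2. All 17 alternative settings called it, with log2 fold changes of 2.42 to 4.73.

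Cfp counted 74, 102 and 76 in the Th2 cultures, against 49 and 48 in the Th1 cultures. The groups did not overlap, and the Th0 culture counted 50. Scaled counts were 29.7 ± 2.35 in Th2 cultures (SD, n = 3) and 9.71 ± 1.64 in Th1 cultures (SD, n = 2), a log2 fold change of 1.61 (SE 0.40, adjusted p = 0.0172). The within-experiment log2 ratios were 1.38 and 1.83. Serping1 counted 25, 15 and 16 in the Th2 cultures, against 15 and 9 in the Th1 cultures and 15 in the Th0 culture. These counts were close to a limit of 14.8 to 21.9. It passed narrowly (log2 fold change 1.46, SE 0.50, adjusted p = 0.0490), with both Th1 cultures and 1 Th2 culture at or below the limit, so no bound is given. Both calls depended on the scaling: with TMM factors the log2 fold changes were 1.02 for Cfp (adjusted p = 0.0647) and 0.88 for Serping1 (adjusted p = 0.169), and over all genes 36 were then higher and 30 lower. Leaving out the female Th2 culture or the Th1 culture of experiment 2 also ended the Cfp call (log2 fold changes 1.65 and 1.45, adjusted p = 0.0602 and adjusted p = 0.0865), and without that Th1 culture Serping1 was at 1.01 (adjusted p = 0.307).

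C6 and Cd55 were measured in the cultures without passing. C6 counted 49, 37 and 84 in the Th2 cultures, against 55 and 22 in the Th1 cultures and 36 in the Th0 culture. The groups overlapped (log2 fold change 1.36, SE 0.59, adjusted p = 0.103). Cd55 counted 45, 36 and 36 in the Th2 cultures, against 33 and 64 in the Th1 cultures and 49 in the Th0 culture. Raw counts overlapped, and the log2 fold change was 0.58 (SE 0.42, adjusted p = 0.307), with within-experiment log2 ratios of 1.24 and 0.12. C6 passed without the Th1 culture of experiment 1 (2.38, adjusted p = 0.0368) or the male Th2 culture (1.65, adjusted p = 0.0487), and was at 0.75 without the Th1 culture of experiment 2. Mouse has a near-identical second copy of Cd55, and counts of the probe cannot be assigned between the copies here. Clu (12 to 15 counts in Th2, 13 and 14 in Th1, 9 in Th0) and Cfd (7 to 12 in Th2, 3 and 3 in Th1, 4 in Th0) were at or below the limit in every culture.

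The skin preparations were compared with Th2 cultures, the kind of cell that had been injected. As skin and culture libraries differed in cell type markers, the comparison sets unlike mixtures of cells side by side. It cannot follow expression of the injected cells into diseased skin. Of 6 genes tested, 5 were higher in flare samples (Clu, Serping1, C6, Cfp and Cd55) and 0 lower, where the background was 51.4% of 403 genes higher and 21.6% lower. In first samples the same 5 were higher than in the Th2 cultures and 0 lower, against a background of 37.3% of 397 genes higher and 22.4% lower. Both comparisons use the same 3 Th2 cultures and are not independent. The highest Th2 mean among the members was 29.7 scaled counts (Cfp), below the mean scaled limit of 119.8 in flare and 111 in first samples. Any member above the limit in skin therefore stood above its Th2 mean by construction. A lower call was hardly possible, so the absence of lower calls carries no information. Median log2 fold changes over the 6 tested genes were 4.56 in flare and 3.33 in first samples, beside 1.03 in flare and 0.57 in first samples over all tested genes, also with Clu at its bound. These 6 include Hc, whose skin level has no fold, and without it the medians were 5.19 in flare and 3.47 in first samples. A gene could pass the filter through skin alone, as Clu did, which was above the limit in 0 Th2 cultures. The medians therefore describe only the genes tested and do not speak for Cfd, Cfi and C7.

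**Figure D2:**
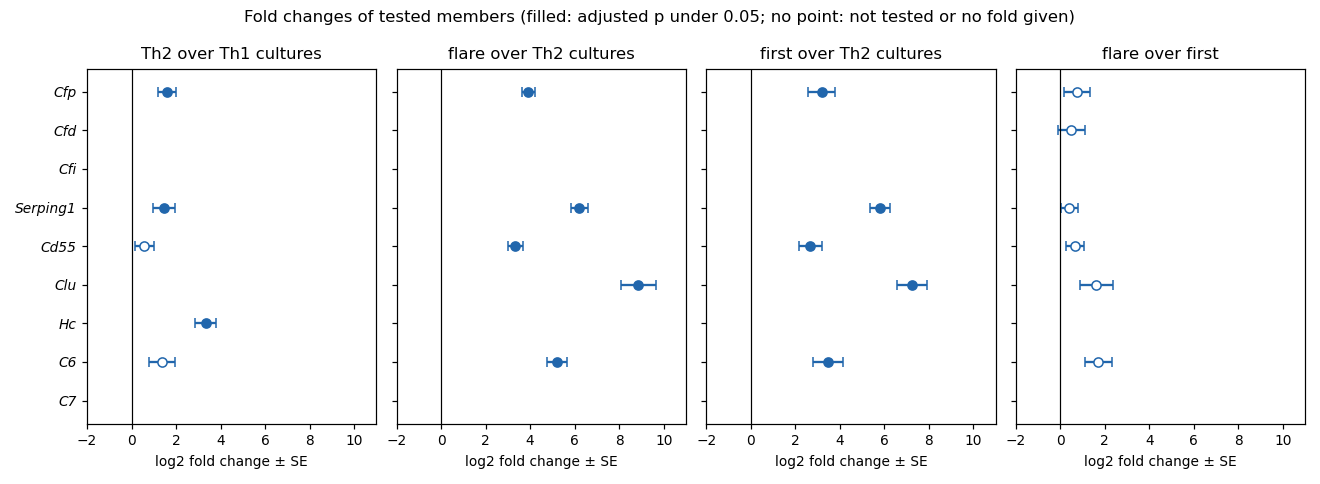
Log2 fold changes (x axis) with standard errors (SE) from edgeR for the members tested in each of the 4 comparisons; filled points passed an adjusted p of 0.05 and a missing point was not tested or has no fold. Hc, Cfp and Serping1 passed in Th2 over Th1 cultures, 5 genes passed in each skin comparison with Th2 cultures, led by Clu, and none passed in flare over first.

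Clu gave the widest separation. It counted 335, 571 and 174 in flare and 41, 373 and 1158 in first samples, against 15, 14 and 12 in the Th2 cultures. Every skin library was above its limit and every Th2 culture at or below it, and the lowest skin value, 41 in the first sample of mouse 1, stood just above a limit of 33.4. Clusterin mRNA was at least 359.8-fold higher in flare than in Th2 samples (fitted log2 fold change 8.86, SE 0.79, adjusted p = 5.57e-06) and at least 116-fold higher in first samples (7.25, SE 0.68, adjusted p = 2.73e-05), in scaled counts. Without the first sample of mouse 6 the bound in first samples was 67.7-fold. The raw median was 23.9 times that of the Th2 cultures in flare and 26.6 times in first samples. Relative to the positive controls only the first sample of mouse 1, at 1.17% of their mean, lay below the Th2 cultures (1.44% to 1.68%).

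Serping1, the inhibitor of the C1r, C1s and MASP proteases, counted 89, 61 and 134 in flare and 65, 186 and 335 in first samples, against 25, 15 and 16 in the Th2 cultures. The skin libraries lay above all cultures in raw counts already. The log2 fold change was 6.22 in flare (SE 0.40, adjusted p = 9.22e-07) and 5.81 in first samples (SE 0.47, adjusted p = 1.96e-05). Clu and Serping1 were called in all 18 alternative settings of both comparisons, including scaling by the positive controls, where the log2 fold changes were 3.69 and 1.13 in flare and 3.45 and 1.64 in first samples.

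C6, Cfp and Cd55 formed a different group, whose raw counts in skin were near those in culture while the housekeeping genes were far lower. C6 counted 70, 105 and 311 in flare and 63, 64 and 133 in first samples, against 49, 37 and 84 in the Th2 cultures. Its raw ranges overlapped those of the cultures, and in scaled counts it rose by 5.19 in flare (SE 0.45, adjusted p = 4.60e-06) and by 3.47 in first samples (SE 0.68, adjusted p = 0.00198), both on the log2 scale. Cfp counted 43, 66 and 178 in flare and 73, 66 and 176 in first samples, against 74, 102 and 76 in the Th2 cultures, with log2 fold changes of 3.92 in flare (SE 0.30, adjusted p = 2.36e-06) and 3.19 in first samples (SE 0.61, adjusted p = 0.00171). The Th2 values of Cfp lay inside the raw range of both skin groups.

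Cd55 counted 18, 27 and 35 in flare and 13, 37 and 101 in first samples, against 45, 36 and 36 in the Th2 cultures. Its raw counts in flare thus lay below the Th2 cultures without overlap, with a median ratio of 0.75, while those in first samples overlapped. The first sample of mouse 1 was below its limit and the flare sample of mouse 1 was above a limit of 17.4 by less than 1 count. In scaled counts the log2 fold change was 3.33 in flare (SE 0.34, adjusted p = 1.48e-05) and 2.68 in first samples (SE 0.52, adjusted p = 0.00192); the call in first samples was lost with the experiment as a replicate block (2.38, adjusted p = 0.0624) and after background subtraction (adjusted p = 0.128).

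The housekeeping median was 17.95 times lower in flare and 4.14 times lower in first samples than in the Th2 cultures, while the positive control median was 1.99 times higher in flare and 3.92 times higher in first samples. Relative to the positive controls, Cfp stood at 2.82% to 6.16% of their mean in flare and 2.08% to 4.85% in first samples, against 8.28% to 10.5% in the Th2 cultures. Cfp and Cd55 were then lower in skin, with log2 fold changes of -1.14 (adjusted p = 0.00707) and -1.75 (adjusted p = 0.000183) in flare and -1.49 (adjusted p = 0.0293) and -1.43 (adjusted p = 0.0221) in first samples. C6 was at 0.12 in flare (adjusted p = 0.789) and -1.22 in first samples (adjusted p = 0.0672). On this scale 36 genes were higher and 334 lower in flare, and 31 higher and 318 lower in first samples. Scaling by the positive controls leaves the lower housekeeping level of skin uncorrected. The lower values of Cfp and Cd55 are therefore statements relative to the control probes. The higher calls of Cfp, C6 and Cd55 in skin are thus statements relative to housekeeping RNA.

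**Figure D3:**
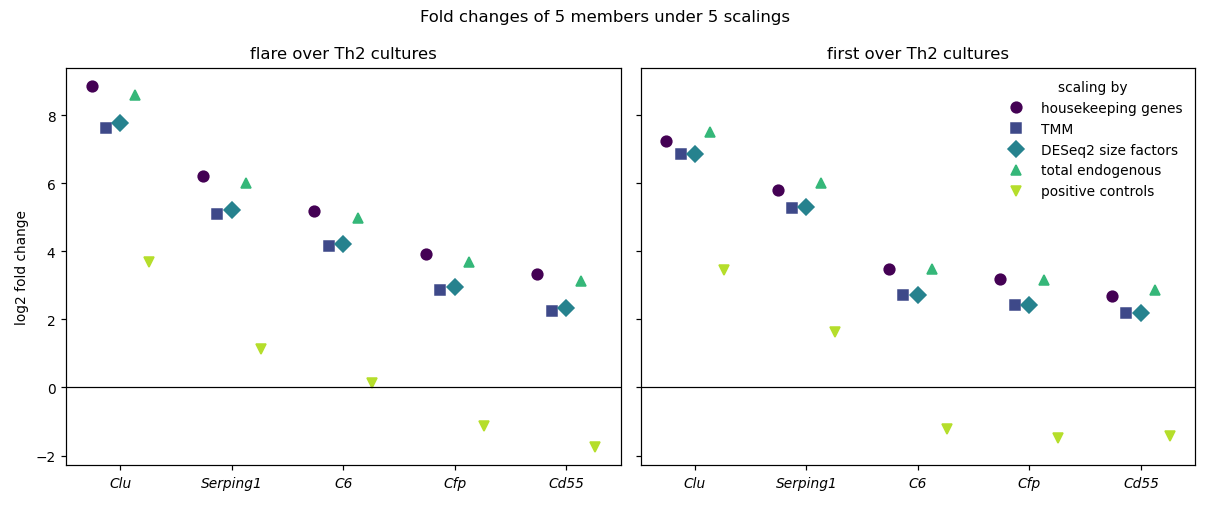
Log2 fold changes (y axis) of the 5 genes called higher in skin, in flare over Th2 cultures (left) and first over Th2 cultures (right), under 5 ways of scaling the libraries. Clu and Serping1 stayed above 0 under all 5, whereas Cfp and Cd55 fell below 0 with the positive controls, as did C6 in first samples.

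**Figure D4:**
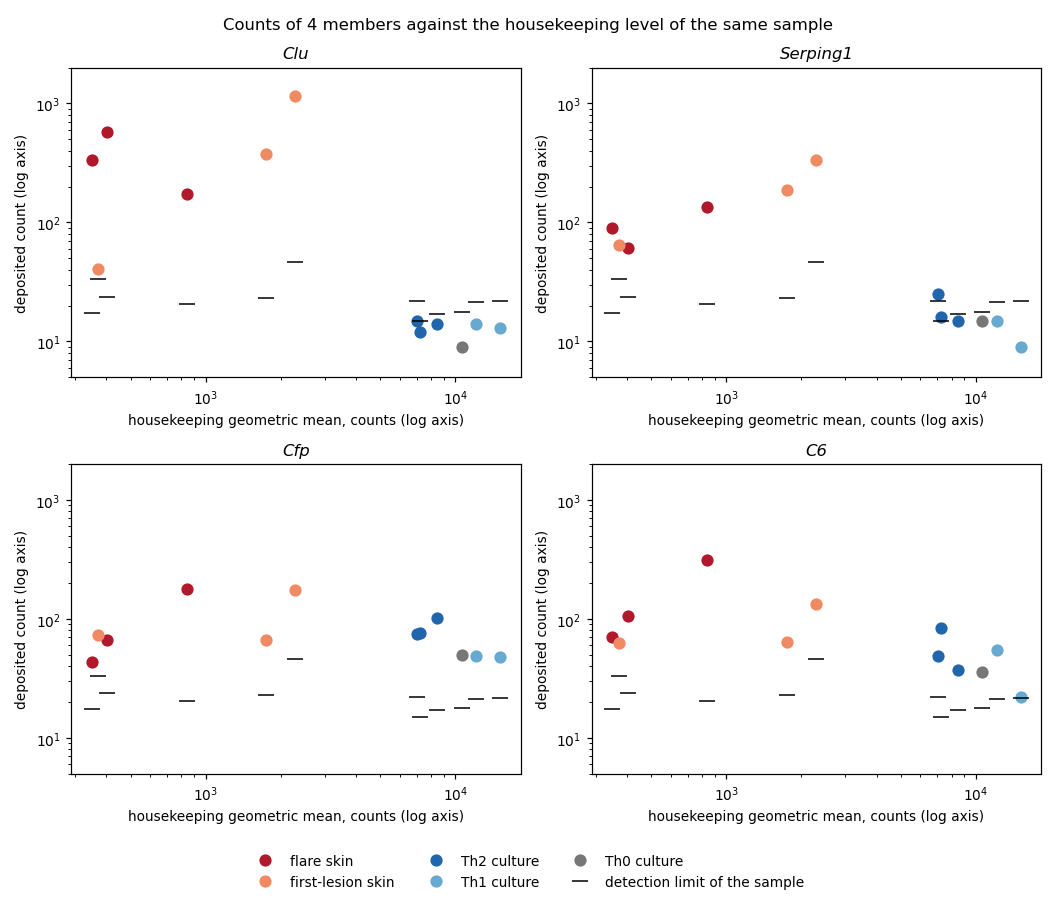
Deposited counts of Clu, Serping1, Cfp and C6 (y axis) against the geometric mean of the 7 housekeeping genes of the same sample (x axis), both on log axes, with the detection limit of each sample as a bar. Cfp ran from 43 to 178 and C6 from 22 to 311 counts, with skin and culture overlapping, while the housekeeping mean ran between 349 and 15129, and Clu and Serping1 were highest in the skin libraries.

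Hc went the other way in raw counts. It counted 4, 5 and 2 in flare and 8, 3 and 14 in first samples, against 64, 55 and 40 in the Th2 cultures, and all 6 skin libraries were at or below the limit. That limit averaged 119.8 scaled counts in flare and 111 in first samples, above the Th2 level of 19.0, so a Th2-like level of C5 mRNA per housekeeping RNA was not detectable in skin at this depth and no fold is given. Relative to the positive controls Hc stood at 0.069% to 0.28% of their mean in flare and 0.14% to 0.39% in first samples, against 4.97% to 7.16% in the Th2 cultures. Cfd counted 34, 12 and 18 in flare and 16, 38 and 90 in first samples, against 12, 7 and 9 in the Th2 cultures. It was above the limit in flare mouse 1 and in first mice 3 and 6, and was not tested against the cultures because too few libraries passed. Pparg, the 1 adipocyte marker on the panel, counted 14 to 17 in flare and 13 to 53 in first samples, against 356 to 392 in the Th2 cultures. Cfi counted 3, 5 and 2 in flare and 3, 5 and 7 in first samples, against 3, 1 and 4 in the Th2 cultures, and C7 8, 4 and 5 in flare and 13, 3 and 3 in first samples, against 12, 6 and 13 in the Th2 cultures. Both were at or below the limit in every library.

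Flare and first samples were compared with each other to ask whether recurrence differed from first disease. Of the 6 genes tested, 0 were called, as were 0% of the 277 genes tested. At an unadjusted p under 0.05 edgeR gave 29 genes and limma 28, with C6 as the 1 member in each, and DESeq2 gave 48, with C6 and Clu; after adjustment DESeq2's Wald test called 9 genes, C6 among them. In scaled counts C6 was at 540, 703 and 1000 in flare samples and 457, 98.9 and 157 in first samples, without overlap, with a log2 fold change of 1.71 (SE 0.59, adjusted p = 0.373). Clu ranged from 559 to 3820 scaled counts in flare and from 298 to 1364 in first samples, and the groups overlapped (log2 fold change 1.62, SE 0.76, adjusted p = 0.464). The log2 fold changes of Cfp, Cd55, Cfd and Serping1 were 0.74, 0.66, 0.49 and 0.41, with adjusted p of 0.542 to 0.733 and overlapping groups, and the median was 0.70 over the 6 members and 0.42 over all tested genes. SEs of 0.38 to 0.76 leave differences of the size seen in Clu and C6 unresolved with 3 libraries a group. All first samples were from experiment 1, and within it the log2 ratios of flare to first samples were 1.39 for C6 and 2.10 for Clu.

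The direction of the skin differences was the same within experiments. Within experiment 1, log2 ratios of flare over Th2 samples were 9.12 for Clu, 5.84 for Serping1, 5.05 for C6, 3.77 for Cfp and 3.21 for Cd55, and within experiment 2 they were 6.97, 6.33, 5.54, 4.24 and 3.18. First over Th2 samples could be compared in experiment 1 only, with log2 ratios of 7.02, 5.33, 3.66, 3.30 and 2.39 in the same gene order. Leaving out each library in turn kept the 5 calls in flare and in first samples, with log2 fold changes of 8.30 to 9.34 in flare and 6.48 to 7.62 in first samples for Clu, and of 5.95 to 6.54 in flare and 5.60 to 6.14 in first samples for Serping1. The first sample of mouse 1 weighed most on Cfp and C6, which were at 2.38 and 2.64 in first over Th2 samples without it, and the first sample of mouse 6 on Clu, at 6.48 without it.

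Calls among the other 22 complement genes on the panel were in the same direction. In the cultures 10 were tested. Of these, 4 were higher in Th2 cultures and 0 lower, beside 27.8% higher over all genes tested. They included C8a, a subunit of the membrane attack complex (log2 fold change 2.49), and C1s (1.79) and C1ra (1.44), proteases of C1. The last was Cd46, known in human as a membrane cofactor for factor I (1.59). C1s was at least 2.33-fold higher by the limit, and C8a and C1ra were at or below it in both Th1 cultures and in 1 Th2 culture. In flare over Th2 samples 10 of 12 tested genes were higher, and in first over Th2 samples 9 of 11, with 0 lower in either, beside 51.4% higher in flare and 37.3% higher in first samples over all genes tested. These calls are relative to housekeeping RNA. Apart from C1qbp, at 385 scaled counts, each of the 22 genes had a Th2 mean below the mean scaled limit of skin, so lower calls were hardly possible. In raw counts 12 of the 22 genes lay above the Th2 cultures without overlap in flare and 11 in first samples, and 4 and 3 lay below them, C1qbp, C8a and Cd46 in both and C8g in flare. The share over all endogenous genes was not computed, so these counts only describe the list. Masp2, counted among the genes above, was below the limit in every library. The early components led. In scaled counts C4a was at least 584-fold higher in flare and 151-fold in first samples, C3 at least 298-fold in flare and 119.8-fold in first samples, C1qa at least 281-fold in flare and 197-fold in first samples, and C1qb at least 215-fold in flare and 198-fold in first samples. The ratios of raw medians to the Th2 cultures were smaller, at 91.8 in flare and 61.8 in first samples for C4a, 33.9 in flare and 24.4 in first samples for C3, 29.2 in flare and 54.8 in first samples for C1qa, and 19.1 in flare and 39.6 in first samples for C1qb. Cfb, the C3 convertase protease of the alternative pathway, rose by at least 30.2-fold in flare and 26.0-fold in first samples in scaled counts, with raw median ratios of 7.5 in flare and 12.0 in first samples. Without the first sample of mouse 1 the bounds in first samples were 12.0-fold for Cfb, 109.7-fold for C1qa and 116-fold for C1qb, and without the flare sample of mouse 12 that of C1qa in flare was 173-fold. C1ra and C1s rose by 5.85 and 5.26 in flare and by 5.30 and 4.94 in first samples on the log2 scale. The integrin chains Itgax, of complement receptor 4, and Itgam, of complement receptor 3, were called higher relative to housekeeping RNA, Itgax with log2 fold changes of 2.79 in flare and 3.39 in first samples and Itgam with 4.58 in flare. Itgax was above the limit in 1 of 3 flare libraries and its raw median was 18 in flare and 46 in first samples, against 48 in the Th2 cultures. Relative to the positive controls Itgax stood at 0.90% to 1.05% of their mean in flare, against 2.57% to 6.29% in the Th2 cultures, and Itgam at 1.07% to 1.59% in flare, against 1.65% to 1.90% in the Th2 cultures. C4a cannot be separated from its near copy C4b. The median log2 fold change with bounded genes at their bound was 5.55 in flare and 5.30 in first samples. It covers only genes tested, which could pass the filter through skin alone. Between flare and first samples edgeR called 0 of 12 genes tested. Differences of the size seen in C4a (log2 fold change 1.96, SE 0.52, adjusted p = 0.373) stayed unresolved with 3 libraries a group.

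The marker lists of other cell types moved unevenly with these genes. Scaled sums of the 11 monocyte and macrophage markers were 5094 to 8501 in flare, 2495 to 6786 in first and 76.9 to 98.0 in Th2 samples, and those of the 12 stromal, endothelial and epithelial markers 2492 to 3033 in flare, 1214 to 2932 in first and 260 to 367 in Th2 samples. In raw counts 7 of the 11 monocyte and macrophage markers lay above the Th2 cultures without overlap in flare and 8 in first samples, and 1 (Marco) lay below them in flare. Of the 12 stromal, endothelial and epithelial markers 5 lay above the Th2 cultures in both skin groups, and 4 lay below them in flare (Pdgfrb, Pecam1, Cdh5 and Il1r1) and 1 in first samples (Pecam1). The shares over all endogenous genes were not computed. Fcgr1, among the 8 in first samples, was above the limit in no library, and Marco and Pdgfrb were each above it in 1 Th2 culture only. Cd14, the monocyte co-receptor for lipopolysaccharide, counted 176 to 294 in flare and 55 to 906 in first samples, against 7 to 12 in the Th2 cultures. Cxcl12, a chemokine of stromal cells, counted 62 to 121 in flare and 48 to 254 in first samples, against 4 in each Th2 culture. Pecam1, an endothelial adhesion molecule also found on leukocytes, counted 17 to 35 in flare and 31 to 191 in first samples, against 528 to 727 in the Th2 cultures. Their part in the values of Clu, Serping1, C6, Cfp and Cd55 was not tested.

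Across all 12 samples, the scaled counts of the 5 members above the limit in at least 6 samples ran together, with Spearman's rho between pairs of 0.79 (Cfp and Clu) to 0.93 (Cfp and Serping1, Clu and Cd55), as a description over samples that share scaling and tissue. The genes with the most similar order of samples, among 379 above the limit in at least 6 samples, were Ccl24, Ptafr and Tgfbi for Cfp (rho 0.97 to 0.99), C1s, Card9 and Lcp2 for Serping1 (0.99 each), and Cd164, Cebpb and Muc1 for Clu (0.99 each). For Cd55 they were Cebpb and Smad3 (0.96 each) and Cd24a (0.95), and for C6 they were Notch1, Cxcl12 and Cd86 (0.97 to 0.98). Such values were common, as the median rho over the 379 genes was 0.62 to 0.71 for the 5 members.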

How the data were processed

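The authors deposited unscaled NanoString counts per probe for 12 samples (547 endogenous genes, 14 housekeeping genes, 6 positive and 8 negative controls; lowest count 1); a background step and software versions for this table are not given in the sources used here. No column was left unused. The scaling factor of a library was its geometric mean over 7 housekeeping genes, those above the limit (mean plus 2 SD of the negative controls) in all 12 samples. Counts were tested with edgeR 4.0.16 (quasi-likelihood, housekeeping offset; R 4.3.3), and genes had to exceed the limit in at least as many compared samples as the smaller group holds. Adjusted p-values are Benjamini-Hochberg over all genes tested, with a threshold of 0.05, and the SE of a log2 fold change is its size divided by the root of the F statistic. A bound is the mean scaled count of the higher group over the mean scaled limit of the other. Alternatives used DESeq2 1.42.0, limma 3.58.1 (pseudocount 1), other scalings, filters and limits, background subtraction, all samples in 1 fit, a replicate block and leaving out each sample. The test was also run on simulated counts with the same set spread for all genes, known scaling factors and no separate background. Such data differ from the skin libraries in spread, background and scaling, so the run does not speak for the skin calls.

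The experiment label pairs Th1 and Th2 cultures. Deviations from the group means correlated at 0.18, 0.12 and 0.12 between same-experiment cultures over 400 genes. With 2 Th1 cultures, the values between different experiments are forced to be the same with the sign reversed, so these correlations cannot show whether pairing matters. Replicates are separate cultures or mice by their labels, and p-values measure only the spread between these samples. Promoter windows were available for 6 of the 9 genes, and 8 of 9 probe accessions matched RefSeq. Members, lists and motifs were chosen with earlier results of these data known. The genes named beyond the members were those complement genes called in any comparison, apart from a result that is not reported here, and, for each member above the limit in at least 6 samples, the 3 genes with the highest Spearman's rho.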

Additional observations from a re-analysis of the deposited data

Results flagged for a closer look

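The single Th0 culture enters no comparison, so its values stand outside the tests. Cfp was at 12.7 scaled counts there, above its limit of 4.53, beside 28.4, 32.4 and 28.3 in the Th2 cultures and 10.9 and 8.55 in the Th1 cultures. Cd55 was at 12.4 scaled counts in the Th0 culture, beside 17.3, 11.4 and 13.4 in the Th2 cultures and 7.32 and 11.4 in the Th1 cultures. With 1 library, neither difference was tested. No group holds 4 or more samples, so no sample was screened as standing apart from its group.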

How the results depend on the processing

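Among the alternative values of single members, 332 kept their direction and side of the threshold, 18 no longer passed, 3 newly passed and 16 changed sign. In Th2 over Th1 cultures 3 members were called, against 1 with TMM factors, DESeq2 size factors, total endogenous counts or all 12 samples in 1 fit, and 1 to 4 when a library was left out. Over all genes 111 were higher and 18 lower there, against 36 and 30 with TMM factors, 33 and 31 with DESeq2 size factors, 23 and 53 with total counts, 39 and 10 with all 12 samples in 1 fit, 48 and 10 without the female Th2 culture and 61 and 14 without the Th1 culture of experiment 2. The 5 members higher in flare or first over Th2 samples became 2 with the positive controls, and 8 in flare without a filter. These 8 include at least Cfi or C7, which were above the limit in no library. Over all genes, 207 were higher and 87 lower in flare and 148 and 89 in first over Th2 samples. They were 145 and 155 in flare and 128 and 130 in first with TMM factors, 151 and 153 in flare and 129 and 128 in first with DESeq2 size factors, 153 and 133 in flare and 101 and 140 in first after background subtraction, and 36 and 334 in flare and 31 and 318 in first with the positive controls, where the median log2 fold change of all genes was -4.06 and -3.74. Between flare and first samples 0 members were called and 1 by DESeq2's Wald test (9 genes). Log2 fold changes that changed sign were Cd55 in Th2 over Th1 cultures (-0.096 with TMM factors, -0.084 with DESeq2 size factors, -0.37 with total counts), Cfp and Cd55 in flare (-1.14, -1.75) and Cfp, Cd55 and C6 in first over Th2 samples (-1.49, -1.43, -1.22) with the positive controls, and, in flare over first samples, Cfd (-0.43 with the positive controls, -0.080 after background subtraction, and -0.43 to 0.89 when a library was left out, the lowest without flare mouse 1), Serping1 (-0.022, -0.032, -0.0084 and -0.51 with TMM factors, DESeq2 size factors, total counts and positive controls) and Cd55 (-0.32 with the positive controls). The cause was not tested. The experiment as a replicate block left 3, 5, 4 and 0 members called in Th2 over Th1, flare over Th2, first over Th2 and flare over first samples, and ended the Cd55 call in first samples only; all other member calls stayed. The bounds without single libraries were computed after seeing the data. Negative controls limit Hc, Cfd, Cfi and C7 in skin most.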
